A study of Mus musculus with 12 samples.

Results

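The genes described here are 9 genes of 2 routes of fatty acid breakdown that lie outside the mitochondria, together with 1 gene that is often read beside them. They were chosen by name: Ehhadh, Hsd17b4, Acaa1a and Acaa1b of peroxisomal beta-oxidation, Cyp4a10, Cyp4a14, Cyp4a31 and Cyp4a12a of omega-oxidation, and Vnn1. All 9 were found among the 55385 features measured. The rule is a list of names with no threshold on a measured value, but the list was drawn up with earlier results of these data known. RNA was sequenced from whole livers of 12 male C57BL/6 mice, 7 weeks old, in 3 groups of 4 mice. Each mouse received adenovirus at a total of 500000000 plaque-forming units and was killed 7 days later. The Ad-Ctrl group carried the Lac control virus and the empty pAdv5 virus, the Ad-shmGULL group carried a virus expressing a short hairpin RNA against the mouse lncRNA mGULL and the empty pAdv5 virus, and the Ad-shmGULL+hGULL group, the rescue group, carried the hairpin virus together with a virus expressing the human lncRNA hGULL. Controls were therefore virus-treated as well, and no group without virus was measured. The injection is described as intravitreal in the account of this experiment and as retro-orbital in the general account of adenovirus delivery. The level of mGULL itself was not analysed here, so that the knockdown is taken from the labels. Labels number the mice within a group but give no litter, cage or batch, so that p-values measure the spread between these samples.

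Peroxisomes shorten very long chain, branched and dicarboxylic fatty acids. The process releases hydrogen peroxide. Within it a bifunctional protein, either the L type encoded by Ehhadh or the D type encoded by Hsd17b4, hydrates and dehydrogenates the intermediate, and a thiolase, encoded in mice by the paralogs Acaa1a and Acaa1b, removes acetyl-CoA. In omega-oxidation, cytochrome P450 enzymes of the CYP4A family in the endoplasmic reticulum hydroxylate the methyl end of a fatty acid, which can then be turned into a dicarboxylic acid and passed to the peroxisome. Vnn1 encodes vanin-1, a pantetheinase that yields cysteamine and pantothenate, the precursor of coenzyme A. Many of these genes are well-known targets of the nuclear receptor PPARα in mouse liver. Cyp4a12a is in addition a gene with higher expression in male than in female mice.

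The 9 genes lie on 5 chromosomes of the GRCm38.p6 genome by RefSeq positions. Acaa1b (chr9:119148043-119157093) and Acaa1a (chr9:119341028-119350296) both lie on chromosome 9 with other genes between them. The 4 Cyp4a genes lie on chromosome 4 with the paralogs Cyp4a12b and Cyp4a32, in the order Cyp4a12a (chr4:115299046-115332815), Cyp4a12b, Cyp4a14 (chr4:115486200-115496158), Cyp4a10 (chr4:115518287-115533649), Cyp4a31 (chr4:115563627-115579015) and Cyp4a32, and these 6 genes span 323462 bp. Vnn1 (chr10:23894688-23905344) and Ehhadh (chr16:21761285-21787834) stand alone, as does Hsd17b4.

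Because several of these genes are close copies of each other, the stretches of coding sequence that tell them apart are shown first. The coding sequences of Acaa1a and Acaa1b are both 1275 bases long and differ at 44 positions, an identity of 96.5%. Coding bases 259 to 318, the 60 bases with the most differences, hold 11 of them, with the bases of Acaa1b that differ from Acaa1a in capitals:
Acaa1a: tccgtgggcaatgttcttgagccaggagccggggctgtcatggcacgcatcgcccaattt
Acaa1b: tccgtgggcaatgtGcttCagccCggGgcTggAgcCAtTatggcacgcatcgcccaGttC
Cyp4a10, Cyp4a31 and Cyp4a32 share a coding length of 1530 bases, and Cyp4a10 was 96.6% identical to Cyp4a31 and 97.2% identical to Cyp4a32. Their most divergent 60 bases, coding bases 214 to 273, carry 3 differences in Cyp4a31 and 9 in Cyp4a32, again in capitals:
Cyp4a10: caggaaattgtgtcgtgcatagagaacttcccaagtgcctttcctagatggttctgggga
Cyp4a31: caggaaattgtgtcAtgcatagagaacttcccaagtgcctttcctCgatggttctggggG
Cyp4a32: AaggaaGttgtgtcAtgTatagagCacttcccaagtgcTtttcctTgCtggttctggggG
Cyp4a14 was more distant, with 75.6% identity to Cyp4a10 over the aligned coding sequences. The first 60 coding bases of both genes show this, with the 24 bases of Cyp4a14 that differ in capitals:
Cyp4a10: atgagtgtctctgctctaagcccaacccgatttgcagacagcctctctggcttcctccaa
Cyp4a14: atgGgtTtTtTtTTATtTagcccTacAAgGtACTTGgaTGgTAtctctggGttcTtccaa
Cyp4a12a and Cyp4a12b were the closest pair, with 23 differences over 1527 bases (98.5% identity). At most 4 of these fell within 60 bases, coding bases 624 to 683:
Cyp4a12a: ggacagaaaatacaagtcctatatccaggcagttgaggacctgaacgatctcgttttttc
Cyp4a12b: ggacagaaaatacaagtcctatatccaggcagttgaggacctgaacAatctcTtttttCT
The sequences are reading frames of GENCODE vM39 transcripts, written 5′ to 3′. To describe how far short fragments could separate the copies, all stretches of 50 bases were compared, a length chosen here because the read length is not given in the sources used. Of the stretches of Acaa1a, 38.1% also occurred in Acaa1b. The share was 54.9% between Cyp4a12a and Cyp4a12b, 34.8% between Cyp4a10 and Cyp4a32, 19.5% between Cyp4a10 and Cyp4a31, and 0% between Cyp4a10 and Cyp4a14. Reads from the shared stretches cannot be assigned to 1 copy from the coding sequence, so the values of Acaa1a, Acaa1b, Cyp4a10, Cyp4a31 and Cyp4a12a are uncertain to that extent, and those of Cyp4a14 less so with regard to Cyp4a10.

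Values are TPM, a relative abundance of transcripts, which are scaled for gene length and to the same sum in each library, so the sequencing depth is unknown and levels of different genes can be compared. Fold changes and tests below come from limma on log2(TPM + 1) in 1 model of the 3 groups, over the 16378 features with a mean of at least 1 TPM, and p-values were adjusted by Benjamini-Hochberg over all of them. A gene was said to pass the threshold, the one used in the study, if its log2 fold change was above 0.5 or below -0.5 and its unadjusted P under 0.05. All 9 genes were above the filter on low values. In whole liver, fewer cells of a type and less RNA per cell cannot be told apart.

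Over all tested genes, the median log2 fold change was 0.09 for Ad-shmGULL minus Ad-Ctrl, 0.09 for Ad-shmGULL+hGULL minus Ad-shmGULL and 0.17 for Ad-shmGULL+hGULL minus Ad-Ctrl. Scaling the libraries by the median of ratios, which brings such medians near 0 by design, gave -0.01, 0.01 and -0.01. The unscaled medians were above 0 in all 3 comparisons, so the unscaled fold changes stand on a general offset, largest for rescue with control. The same scaling changed the split of genes past the threshold from 876 higher and 377 lower to 608 and 571 in the first comparison, from 382 and 110 to 250 and 163 in the second, and from 1121 and 105 to 481 and 240 in the third. The 6 hepatocyte markers summed to between 69386 and 113222 TPM in every liver. The group means of this sum were 93003 TPM in Ad-Ctrl, 87990 TPM in Ad-shmGULL and 76486 TPM in Ad-shmGULL+hGULL. The 5 endothelial markers summed to 85.0 to 149 TPM in Ad-Ctrl, 141 to 185 TPM in Ad-shmGULL and 136 to 166 TPM in Ad-shmGULL+hGULL, and 1 of the 5, Stab2, passed the threshold with higher values in Ad-shmGULL than in Ad-Ctrl, as named after its value was seen. Of the hepatocyte markers, 2 of 6 passed the threshold as lower in Ad-shmGULL and in Ad-shmGULL+hGULL than in Ad-Ctrl. They were Apoa1 and Tat, named after their values were seen. Among all tested genes 2.3% and 0.641% passed as lower in these comparisons. Fold changes of hepatocyte markers were above 0 for 3 of 6 in Ad-shmGULL and for 1 of 6 in Ad-shmGULL+hGULL, against Ad-Ctrl. Sums of the 6 Kupffer cell markers ranged from 486 to 771 TPM, of the 6 T and NK cell markers from 16.7 to 58.8 TPM, of the 5 stellate cell markers from 69.0 to 133 TPM and of the cholangiocyte markers from 6.07 to 17.0 TPM, with overlapping ranges between the groups. Of these, 1 of 3 tested cholangiocyte markers, Sox9 (0.64), passed as higher in Ad-shmGULL than in Ad-Ctrl, and 1 of 6 T and NK cell markers, Gzmb (1.03), as higher in Ad-shmGULL+hGULL than in Ad-shmGULL, both named after their values were seen. Among all tested genes 5.35% passed as higher in Ad-shmGULL minus Ad-Ctrl and 2.33% in Ad-shmGULL+hGULL minus Ad-shmGULL. The part of these marker differences in the results was not tested.

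In the livers of control mice the thiolase gene Acaa1b was the most abundant of the 9 genes, at 1103 ± 82.3 TPM (mean ± SD, n = 4, as for all group values here). Its 4 values lay above every control value of the other 8 genes. Hsd17b4 followed at 425 ± 33.5 TPM, Cyp4a12a at 336 ± 24.3 TPM, Cyp4a10 at 320 ± 203 TPM and Ehhadh at 300.4 ± 44.8 TPM. Cyp4a12a and Ehhadh overlapped in range, and the values of Cyp4a10, from 114 to 597 TPM, spanned those of all of its neighbors in this order. Cyp4a14 was at 209 ± 151 TPM, Acaa1a at 137 ± 11.6 TPM, Vnn1 at 70.9 ± 9.09 TPM and Cyp4a31 at 13.2 ± 7.26 TPM. The order of Acaa1a and Vnn1 held in each control mouse, while Cyp4a14 overlapped with Acaa1a. Genes of the same step thus differed in level: of the thiolase pair, the Acaa1b copy gave about 8 times the TPM of Acaa1a in controls, with a ratio between 7.44 and 8.91 in the 4 mice.

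**Figure D1:**
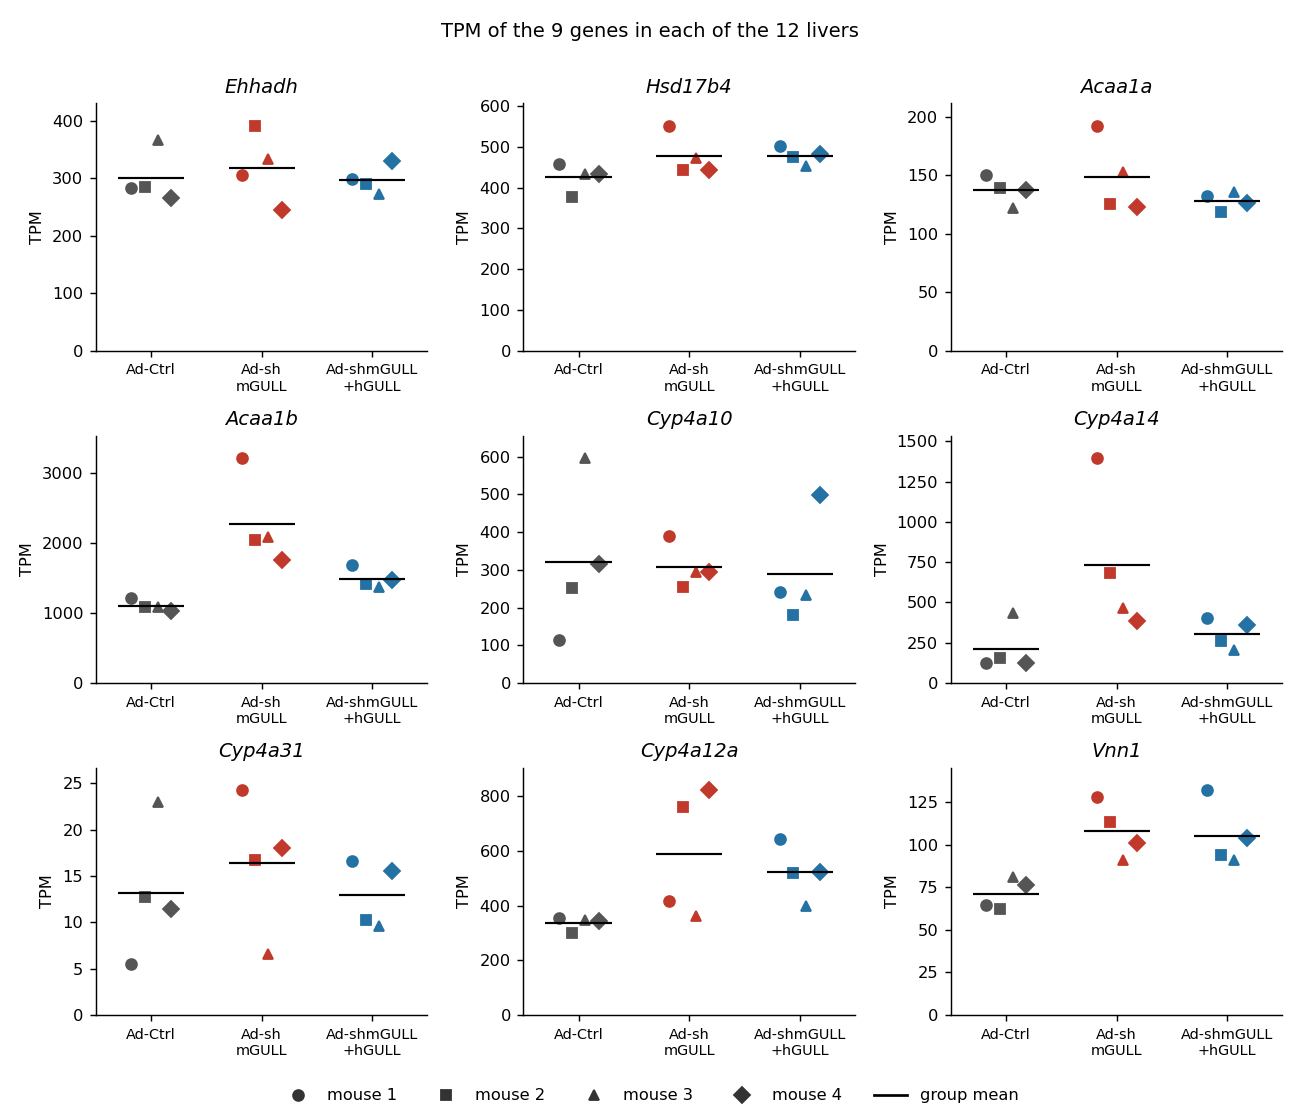
TPM (linear axis from 0) of each of the 9 genes in the 12 livers, with 1 symbol shape for each mouse number and a line at the group mean; a shared number does not link mice across groups. Acaa1b, Cyp4a12a and Vnn1 had all 4 Ad-shmGULL values above all 4 Ad-Ctrl values, Cyp4a14 overlapped through Ad-Ctrl mouse 3 (434 TPM), and Ehhadh, Hsd17b4, Acaa1a, Cyp4a10 and Cyp4a31 overlapped throughout.

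The first comparison asks how these genes differed between mice given the hairpin virus against mGULL and mice given the Lac control virus. Of the 9 genes 4 passed the threshold, and all of these were higher in Ad-shmGULL than in Ad-Ctrl: Cyp4a14, Acaa1b, Cyp4a12a and Vnn1. Among all tested genes 5.35% passed in this direction and 2.3% in the other. At an adjusted p under 0.05 there were 3 of 9 genes, Acaa1b, Cyp4a14 and Vnn1, beside 3.23% of all genes. This count was not firm: it was 1, Acaa1b alone, with median-of-ratios scaling, quantile normalization, array weights, no filter on low values or no trend in the model, and 0 with only the 2 groups in the fit, where Acaa1b had an adjusted p of 0.053. It was also 1 without Ad-Ctrl mouse 1, 2 or 4, without Ad-shmGULL mouse 1 or 2, and without rescue mouse 2 or 4, and at most 4 when other mice were left out. In 3 of 9 genes all Ad-shmGULL values were above all Ad-Ctrl values, as in 6.93% of all genes. The median log2 fold change of the 9 genes was 0.32, and that of all genes 0.09. All 9 had a mean log2 difference above 0, although the mean TPM of Cyp4a10 was lower, and with median-of-ratios scaling Ehhadh (-0.033) and Acaa1a (-0.019) were below it, as were Ehhadh (-0.0065) and Cyp4a10 (-0.085) with array weights, which count noisier libraries less.

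The bifunctional enzymes of peroxisomal beta-oxidation did not pass. Ehhadh was at 283, 286, 366 and 267 TPM in Ad-Ctrl mice 1 to 4 and at 306, 391, 334 and 244 TPM in Ad-shmGULL mice. Both the highest and the lowest of these values were from the Ad-shmGULL group. The log2 fold change was 0.08 (SE 0.14, adjusted p = 0.81), with -0.033 on median-of-ratios scaling. Hsd17b4, whose product also acts on branched chains and bile acid intermediates, was at 457, 378, 433 and 433 TPM in controls and at 552, 444, 472 and 444 TPM after knockdown. The groups overlapped through control mouse 1, and the log2 fold change was 0.17 (SE 0.09, adjusted p = 0.32).

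The thiolase genes gave different results. Acaa1a was at 150, 140, 122 and 138 TPM in controls and at 192, 125, 153 and 123 TPM in Ad-shmGULL, with overlapping groups and a log2 fold change of 0.09 (SE 0.13, adjusted p = 0.75). Acaa1b was at 1218, 1082, 1086 and 1024 TPM in controls and at 3211, 2037, 2083 and 1749 TPM in Ad-shmGULL. Every knockdown liver lay above every control liver, and mouse 1 of the knockdown group was the highest. The mean rose 2.06-fold, with a log2 fold change of 1.01 (SE 0.16, adjusted p = 0.0099). Without knockdown mouse 1 the log2 fold change was 0.83, and it stayed between 0.83 and 1.12 when any 1 of the 12 mice was left out.

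Of the omega-hydroxylases, Cyp4a14 had the largest fold change of the 9 genes and a wide spread. It was at 125, 155, 434 and 122 TPM in controls and at 1396, 682, 463 and 381 TPM after knockdown. The controls were low apart from mouse 3, which lay within the knockdown range, so the groups overlapped. The mean rose 3.49-fold, with a log2 fold change of 1.83 (SE 0.44, adjusted p = 0.045). The log2 fold change was 1.46 without knockdown mouse 1 and 2.25 without control mouse 3. With those mice left out in turn it passed the threshold each time, although over all mice left out in turn the adjusted p ranged from 0.031 to 0.12.

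The neighbor of Cyp4a14 on chromosome 4, Cyp4a10, behaved differently. It was at 114, 253, 597 and 315 TPM in controls and at 390, 255, 293 and 294 TPM in Ad-shmGULL. The 4 knockdown values all lay inside the control range. The log2 fold change was 0.16 (SE 0.42, adjusted p = 0.87), -0.25 without control mouse 1 and 0.54 without control mouse 3, so that no direction could be given. Its mean TPM pointed the other way, 320 in controls and 308 after knockdown. The close paralog Cyp4a31 was at 5.47, 12.8, 22.9 and 11.5 TPM in controls and at 24.3, 16.8, 6.53 and 18.0 TPM in Ad-shmGULL. Its groups also overlapped, with a log2 fold change of 0.32 (SE 0.40, adjusted p = 0.72).

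Cyp4a12a was at 354, 300.3, 347 and 342 TPM in controls, with a coefficient of variation of 7.24% that was the smallest of the 4 omega-hydroxylases, beside 55.2% for Cyp4a31. In Ad-shmGULL it was at 415, 760, 362 and 822 TPM, so that mice 2 and 4 were far above the controls and mice 1 and 3 slightly above them. The groups did not overlap, and the mean rose 1.75-fold with a log2 fold change of 0.72 (SE 0.24, adjusted p = 0.11), which passed the threshold but not an adjusted p of 0.05. The near-identical Cyp4a12b, which is not one of the 9 genes, was at 54.4 to 99.2 TPM in controls and at 71.6, 125, 89.4 and 153 TPM after knockdown. It was highest in the same knockdown mice as Cyp4a12a and had a log2 fold change of 0.55 (SE 0.21, adjusted p = 0.17).

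Vnn1 was at 64.5, 62.2, 81.1 and 76.0 TPM in controls and at 128, 113, 90.9 and 101 TPM in Ad-shmGULL. All knockdown values were above all control values. The mean rose 1.53-fold, with a log2 fold change of 0.60 (SE 0.14, adjusted p = 0.039). With median-of-ratios scaling the log2 fold change was 0.49 and with array weights 0.48, both just short of the 0.5 needed to pass.

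**Figure D2:**
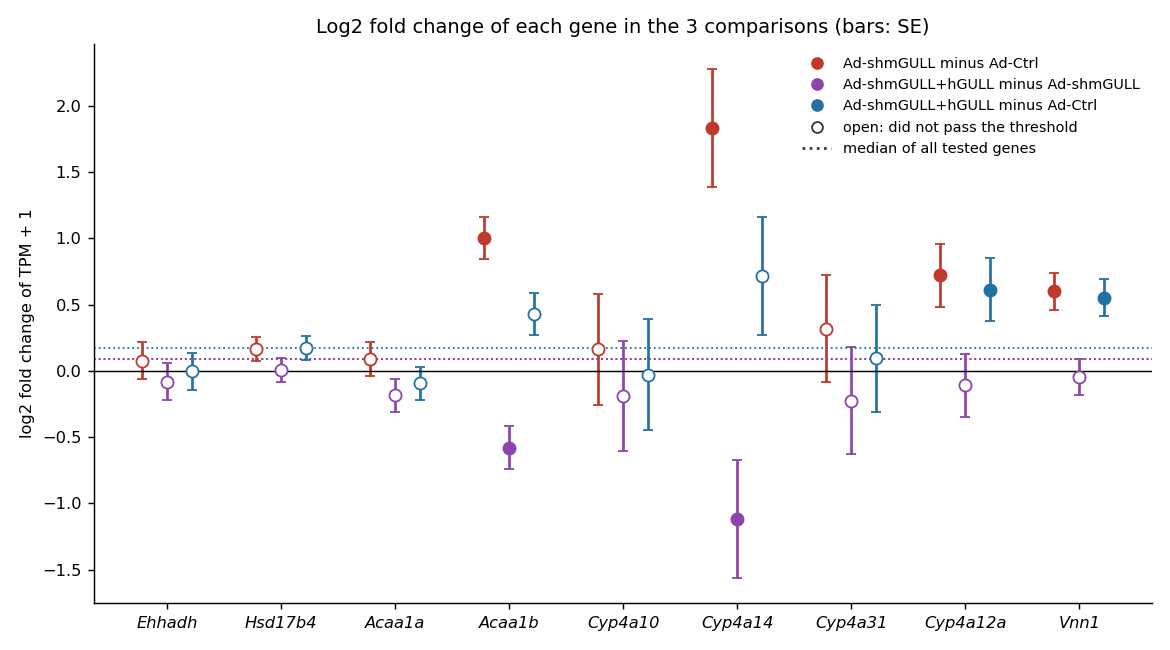
Log2 fold change of TPM + 1 (points, bars show SE) of the 9 genes in the 3 comparisons, filled where the gene passed the threshold, with dotted lines at the median of all tested genes in each comparison. Filled points are seen for Acaa1b (1.01), Cyp4a14 (1.83), Cyp4a12a (0.72) and Vnn1 (0.60) in Ad-shmGULL minus Ad-Ctrl, for Acaa1b (-0.58) and Cyp4a14 (-1.11) in Ad-shmGULL+hGULL minus Ad-shmGULL, and for Cyp4a12a (0.61) and Vnn1 (0.55) in Ad-shmGULL+hGULL minus Ad-Ctrl.

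The second comparison asks which of these levels changed when hGULL was expressed along with the hairpin. It shares the Ad-shmGULL mice with the first, so that a high knockdown value moves both, and the values are given side by side. Of the 9 genes 2 passed the threshold, Acaa1b and Cyp4a14, both lower in Ad-shmGULL+hGULL. Among all tested genes 0.672% passed in this direction and 2.33% in the other. No gene of the 9 had an adjusted p under 0.05, and this was so for 0% of all genes, where 1757 had an unadjusted P under 0.05 and the smallest adjusted p was 0.12. The groups did not overlap for 1 of 9 genes, Acaa1b, lower in the rescue group as in 0.983% of all genes. The median log2 fold change of the 9 genes was -0.19, and that of all genes 0.09.

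Acaa1b was at 1683, 1408, 1374 and 1473 TPM in the 4 rescue livers. All were below the lowest knockdown liver (1749 TPM) and above the highest control liver (1218 TPM). The log2 fold change against Ad-shmGULL was -0.58 (SE 0.16, adjusted p = 0.32). Without knockdown mouse 1 it was -0.40 and no longer passed. Against Ad-Ctrl, Acaa1b had a log2 fold change of 0.43 (SE 0.16, adjusted p = 0.13), under the size needed to pass although the groups were apart.

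Cyp4a14 was at 403, 258, 205 and 357 TPM in the rescue group. Mice 2, 3 and 4 were below all knockdown mice, while mouse 1 lay between the 2 lowest of them. The log2 fold change against Ad-shmGULL was -1.11 (SE 0.44, adjusted p = 0.42). It did not pass without knockdown mouse 1 (-0.74), without knockdown mouse 2 (-1.08), or without rescue mouse 2 (-1.05) or mouse 3 (-0.94). Against Ad-Ctrl the log2 fold change was 0.72 (SE 0.44, adjusted p = 0.33), and without control mouse 3 it was 1.14 and passed the threshold.

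Vnn1 and Cyp4a12a did not pass in Ad-shmGULL+hGULL minus Ad-shmGULL. Vnn1 was at 132, 93.6, 90.8 and 104 TPM in the rescue group, a range that included all 4 knockdown values, with a log2 fold change of -0.05 (SE 0.14, adjusted p = 0.91). Cyp4a12a was at 642, 520.2, 398 and 522 TPM, within the knockdown range, with a log2 fold change of -0.11 (SE 0.24, adjusted p = 0.88). That Acaa1b passed here and Vnn1 did not is not a test of a difference between them, which was not run.

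The other 5 genes also did not pass against Ad-shmGULL. Ehhadh was at 299, 290, 273 and 330 TPM in the rescue group (log2 fold change -0.08, SE 0.14), and Acaa1a at 132, 119, 136 and 127 TPM (-0.19, SE 0.13). Hsd17b4 was at 503, 476, 454 and 482 TPM, with a log2 fold change of 0.0067 (SE 0.09) that was -0.087 on median-of-ratios scaling. Cyp4a10 was at 240, 180, 234 and 499 TPM, where mouse 4 stood above the other three, with a log2 fold change of -0.19 (SE 0.42). Cyp4a31 was at 16.6, 10.3, 9.55 and 15.5 TPM (-0.22, SE 0.40). For Ehhadh, Hsd17b4 and Acaa1a the rescue, knockdown and control ranges all overlapped.

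The third comparison, rescue with control, shares mice with both others and asks what remained different from controls when hGULL was present. Of the 9 genes 2 passed the threshold, Cyp4a12a and Vnn1, both higher in Ad-shmGULL+hGULL. Among all tested genes 6.84% passed in this direction and 0.641% in the other. None of the 9 had an adjusted p under 0.05, beside 2.15% of all genes. All rescue values were above all control values in 3 of 9 genes, Acaa1b, Cyp4a12a and Vnn1, and in 21.4% of all genes. The median log2 fold change was 0.17 both for the 9 genes and for all genes. For Cyp4a12a the log2 fold change was 0.61 (SE 0.24, adjusted p = 0.14) and for Vnn1 0.55 (SE 0.14, adjusted p = 0.055). Relative to the median of all genes these were 0.44 and 0.38, and with median-of-ratios scaling (0.41 and 0.35) neither passed. Both also failed to pass without control mouse 2 (0.56 and 0.49) or without rescue mouse 1 (0.51 and 0.44). Hsd17b4 had a log2 fold change of 0.17 (SE 0.09), Cyp4a31 of 0.09 (SE 0.40), Ehhadh of -0.004 (SE 0.14), Cyp4a10 of -0.03 (SE 0.42) and Acaa1a of -0.09 (SE 0.13). The signs of Hsd17b4 and Cyp4a31 turned to -0.032 and -0.097 with median-of-ratios scaling.

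Because scaling of a library cancels in a ratio of 2 genes, the related genes were also compared within each liver. The 3 ratios were chosen after the values had been seen, and the 9 tests of the ratios were exact two-sided permutation tests of 4 against 4 mice, whose smallest possible p is 0.0286, or 0.0644 adjusted as found here over the 9 tests. The ratio of Acaa1b to Acaa1a was 8.11, 7.75, 8.91 and 7.44 in Ad-Ctrl, 16.7, 16.3, 13.6 and 14.2 in Ad-shmGULL and 12.7, 11.8, 10.1 and 11.6 in Ad-shmGULL+hGULL. The 3 groups were apart from each other, with the rescue group in between. The ratio rose 1.89-fold from control to knockdown (log2 difference 0.92, exact p = 0.0286) and was 1.44 times the control value in the rescue group (log2 difference 0.52, exact p = 0.0286), with a log2 difference of -0.39 between rescue and knockdown (exact p = 0.0286). Unlike the fold change of Acaa1b alone, the log2 difference of the ratio between knockdown and control moved little when mice were left out, between 0.87 and 0.97.

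The ratio of Cyp4a14 to Cyp4a10 was 1.10, 0.611, 0.727 and 0.388 in controls and 3.58, 2.67, 1.58 and 1.30 after knockdown. These groups did not overlap, although the values of each gene by itself did. Control mouse 3, which was highest for both genes, had a ratio inside the range of the other control mice. The log2 difference was 1.67 (exact p = 0.0286, adjusted 0.0644). In the rescue group the ratio was 1.68, 1.43, 0.878 and 0.714, which overlapped with both other groups (log2 difference to knockdown -0.93, exact p = 0.143, and to control 0.75, exact p = 0.171). The ratio of Cyp4a12a to Cyp4a12b ranged from 3.50 to 6.51 in controls, from 4.05 to 6.08 after knockdown and from 3.85 to 5.87 in the rescue group. Its log2 difference between knockdown and control was 0.17 (exact p = 0.486).

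**Figure D3:**
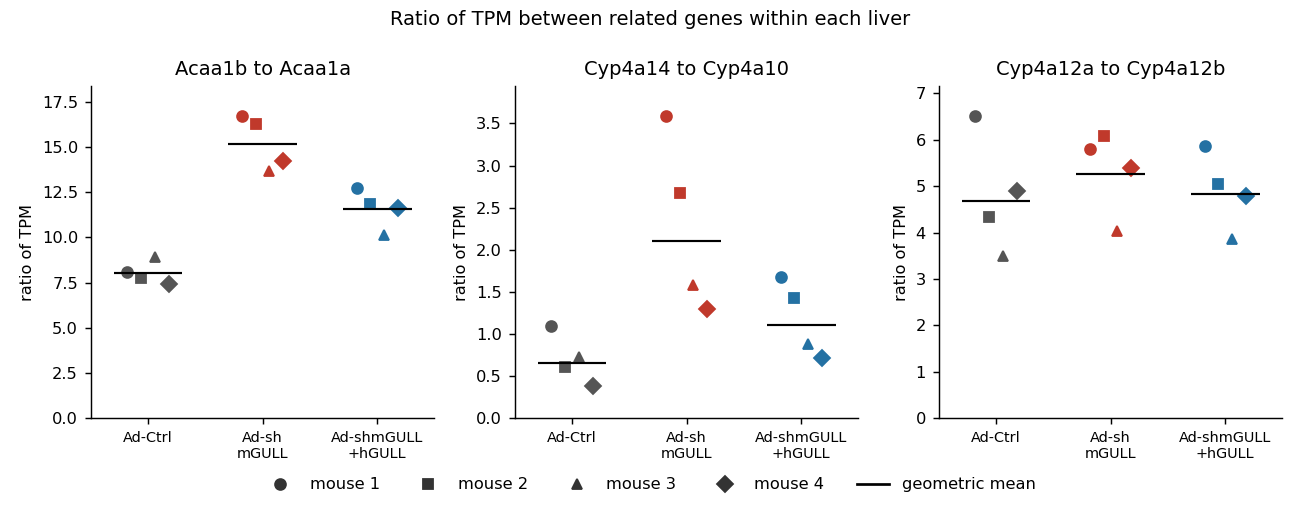
Ratio of TPM between 2 related genes within each of the 12 livers (linear axis from 0; lines show geometric means). Acaa1b to Acaa1a separates the 3 groups (7.44 to 8.91, 13.6 to 16.7 and 10.1 to 12.7), Cyp4a14 to Cyp4a10 separates Ad-Ctrl from Ad-shmGULL, and Cyp4a12a to Cyp4a12b overlaps in all groups.

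Mice within a group differed in several of the 9 genes at a time. Control mouse 3 had the highest control value of Ehhadh, Cyp4a10, Cyp4a14, Cyp4a31 and Vnn1, 5 of the 9 genes, where 21.3% of all tested genes were highest in that mouse. Knockdown mouse 1 was highest of its group in 7 of 9 genes (all tested genes 17.3%) and lowest in 0 of 9 (all tested genes 44.3%). In the rescue group mouse 1 was highest in 6 of 9 (38.4%) and mouse 3 lowest in 7 of 9 (31.8%). Deviations of the mice from their group means are given here as a description over 12 livers, whose points share the library and its scaling. Over the 36 pairs of the 9 genes, Pearson r ranged from -0.69 for Acaa1a and Cyp4a12a to 0.83 for Acaa1a and Acaa1b. The 6 pairs above 0.7 were Acaa1a with Acaa1b, Acaa1b with Hsd17b4 (0.81), Cyp4a14 with Vnn1 (0.74) and Cyp4a31 (0.74), Cyp4a31 with Vnn1 (0.74) and Cyp4a10 with Cyp4a31 (0.71). Of the 2 paralogs outside the 9 genes, Cyp4a12b had r = -0.91 with Acaa1a and -0.72 with Acaa1b, and Cyp4a32 had 0.74 with Cyp4a10. Pairs with near-identical copies can share reads, as described above.

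The tested genes whose log2(TPM + 1) was most like that of a given gene over the 12 livers, groups included, were found by Pearson r. For Ehhadh they were Tfcp2l1 (0.90), Dgke (0.82) and Utp23 (0.82), all under 6 TPM in each group mean. For Cyp4a14 they were the processed pseudogene Gm8712 (0.91), Slc30a10 (0.91), which encodes a manganese transporter and rose from 8.36 to 18.5 TPM in the means, and Pank1 (0.90), which encodes a pantothenate kinase of coenzyme A synthesis, with means of 95.0 TPM in Ad-Ctrl and 121 TPM in Ad-shmGULL. For Vnn1 they were Msl1 (0.95), Morn1 (0.95) and Ppm1a (0.94).

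Genes around the 9 on the same routes were counted from lists. Among 24 other peroxisomal lipid enzymes and transporters, 4 were higher in Ad-shmGULL than in Ad-Ctrl, 0 were lower and 20 did not pass, where 5.35% of all tested genes passed as higher. The median log2 fold change of the list was 0.18, beside 0.09 for all genes. The 4 were Acot3 (9.87 to 34.1 TPM in the means, log2 fold change 1.67, adjusted p = 0.019) and Acot4 (0.69, adjusted p = 0.055), acyl-CoA thioesterases of the peroxisome, Abcd2 (8.83 to 24.1 TPM, 1.31, adjusted p = 0.038), which imports very long chain acyl-CoA, and Crat (0.66, adjusted p = 0.093), carnitine acetyltransferase. Cat, which encodes catalase, did not pass (log2 fold change 0.09, SE 0.14). None of the list passed in rescue minus knockdown, where 2.33% of all tested genes passed as higher and 0.672% as lower. In rescue minus control 3 were higher, among them Acot3 (1.02) and Abcd2 (0.94), where 6.84% of all tested genes passed as higher. Of 17 peroxins and other genes of peroxisome biogenesis, 0 passed in any of the 3 comparisons, with medians of 0.16, 0.07 and 0.15. Between knockdown and control, 1 of them, Pex7, had an adjusted p under 0.05 (0.047) with a log2 fold change of -0.43. It was named after its value was seen.

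Of 16 other genes of omega-oxidation 13 were tested, and 3 were higher and 1 lower in Ad-shmGULL than in Ad-Ctrl. Among all tested genes 5.35% passed as higher and 2.3% as lower. The list median was 0.11, beside 0.09 for all genes. Higher were Aldh3a2 (0.57, SE 0.11, adjusted p = 0.019), the fatty aldehyde dehydrogenase that follows omega-hydroxylation, at 165 to 221 TPM in controls and 274 to 332 TPM after knockdown without overlap, Cyp4a12b (0.55) and, barely, Cyp4b1 (0.505, adjusted p = 0.10). Lower was Cyp4a32, at 50.9, 66.9, 127 and 98.6 TPM in controls and 41.7, 50.6, 53.7 and 70.3 TPM after knockdown, with a log2 fold change of -0.60 (SE 0.27, adjusted p = 0.24). Its groups overlapped, and it lies next to Cyp4a31 in the cluster. In rescue minus knockdown 0 of the 13 passed. In rescue minus control 2 were higher, Cyp4v3 (0.57) and Cyp4a12b (0.56), where 6.84% of all tested genes passed as higher.

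Of 24 other well-known PPARα targets, 5 were higher, 0 lower and 19 did not pass in Ad-shmGULL minus Ad-Ctrl. Among all tested genes 5.35% passed as higher and 2.3% as lower. The list median was 0.29, beside 0.09 for all genes. The 4 with the largest fold changes were the fatty acid transporter Cd36 (66.2 to 189 TPM in the means, log2 fold change 1.49, adjusted p = 0.056), the pyruvate dehydrogenase kinase Pdk4 (1.35, adjusted p = 0.088) and the acyl-CoA thioesterases Acot2 (1.29, adjusted p = 0.040) and Acot1 (0.95, adjusted p = 0.12). The fifth was Vnn3, a vanin gene like Vnn1, named here after its value was seen, at 104 TPM and 151 TPM in the means (0.52, adjusted p = 0.062). The groups overlapped for Acot1, at 68.3, 24.2, 22.8 and 19.5 TPM after knockdown and 11.1 to 20.3 TPM in controls, with knockdown mouse 1 far above the others. Cpt1a, the rate-limiting step of mitochondrial entry, had a log2 fold change of -0.35 (SE 0.09, adjusted p = 0.058), short of the size needed, with 283, 283, 316 and 329 TPM in controls and 215, 209, 266 and 262 TPM after knockdown. In the rescue group Cpt1a was at 287, 299, 298 and 296 TPM, all above the knockdown values. Its log2 fold change was 0.32 against Ad-shmGULL (SE 0.09, adjusted p = 0.36), which did not pass, and -0.04 against Ad-Ctrl. In rescue minus knockdown 0 of 24 passed. In rescue minus control 3 were higher, among them Cd36 (1.53) and Acot2 (1.07), where 6.84% of all tested genes passed as higher.

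Of a list of 17 genes that holds PPARα, other nuclear receptors and cofactors, 1 gene passed. It was Pparg, a receptor gene of the list, which was higher in Ad-shmGULL (16.1 to 23.1 TPM in the means, 0.57, adjusted p = 0.22) and in the rescue group (0.68 against Ad-Ctrl). Among all tested genes 5.35% and 6.84% passed as higher in these comparisons. The list medians were 0.07, 0.17 and 0.17 in the 3 comparisons, beside 0.09, 0.09 and 0.17 for all genes. Ppara itself was at 201 to 228 TPM in controls, 170 to 227 TPM in Ad-shmGULL and 219 to 242 TPM in the rescue group, with a log2 fold change of -0.11 (SE 0.09, adjusted p = 0.55) for knockdown minus control. Its dimer partner Rxra (-0.15, SE 0.09) and the coactivator Ppargc1a (-0.06, SE 0.14) also did not pass. Ppara did not pass in any of the 3 comparisons. The lists overlap with the 9 genes in what is known of their control, and were chosen with earlier results of these data known.

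**Figure D4:**
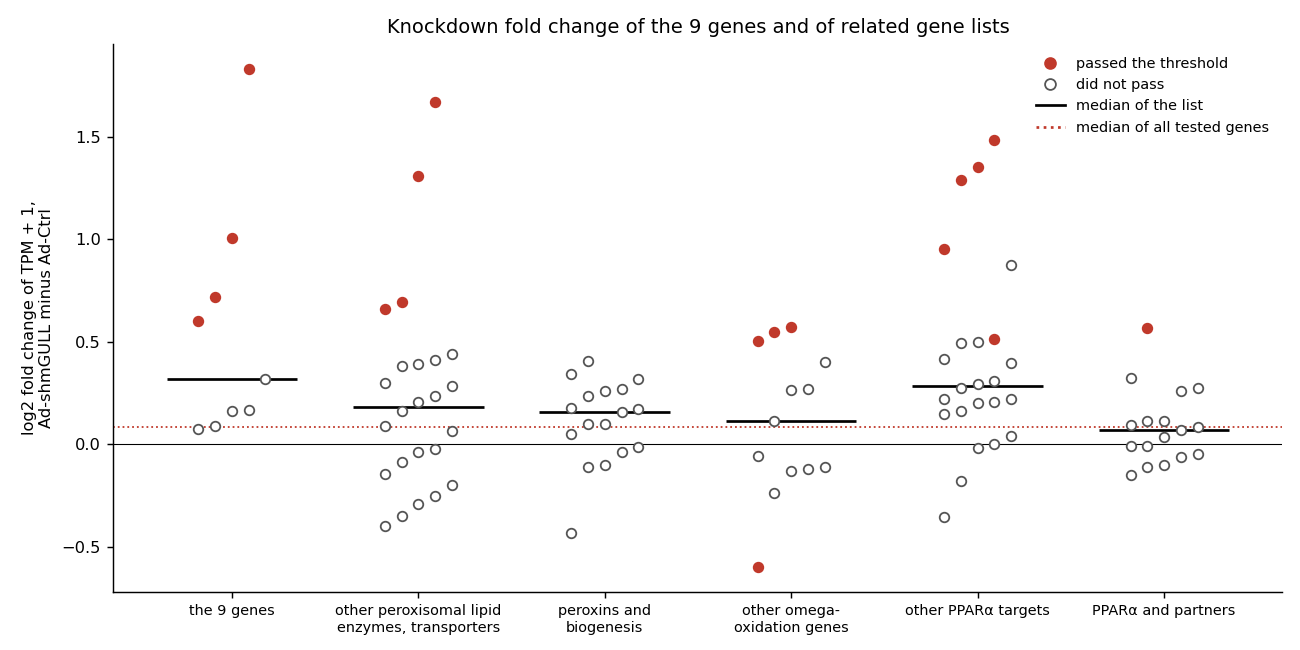
Log2 fold change of TPM + 1 in Ad-shmGULL minus Ad-Ctrl for each of the 9 genes and for each tested gene of 5 related lists, filled where the gene passed the threshold, with a black line at the list median and a dotted line at the median of all tested genes (0.09). The medians are 0.32 for the 9 genes, 0.18 for the other peroxisomal enzymes and transporters, 0.16 for peroxins, 0.11 for other omega-oxidation genes, 0.29 for other PPARα targets and 0.07 for the list labelled PPARα and partners, which also holds other nuclear receptors.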

How the data were processed

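Total RNA of 12 livers was sequenced with strand-specific libraries. The authors deposited 1 table of TPM per gene, made, per the labels and the methods, with fastp 0.23.2, FastQC 0.11.8 and HISAT2 2.2.1.0 against GRCm38.p6 with GENCODE VM24 genes. featureCounts and Subread 2.0 are also named in the submitters' processing notes. How reads shared between paralogs were counted is not given in the sources used here. TPM keep no depth, so no counting error can be given.

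Groups followed the labels. Genes with a mean TPM of at least 1 were tested with limma 3.58.1 (R 4.3.3, trended empirical Bayes) on log2(TPM + 1), with Benjamini-Hochberg adjustment. The threshold was the one in the study's methods. The script was tested on simulated data. No exact test of single genes was needed, since no member was under the filter. Ratios of paralogs were compared by exact permutation (Python 3.11.15, numpy 2.4.6). The members and lists were chosen with earlier results of these data known. Text names every member, and from each list up to 4 genes with the largest fold changes past the threshold in knockdown minus control and up to 2 in each other comparison, and always Ppara, Rxra, Ppargc1a, Cat and Cpt1a. Another gene of this rule is not reported here. Positions are from RefSeq (9 of 9 matched) and coding sequences from GENCODE vM39, taken from transcript 201 or, for Cyp4a31, 202. Alternatives were another pseudocount, filter, scaling and weighting, a replicate block and leaving out each mouse.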

Additional observations from a re-analysis of the deposited data

Results flagged for a closer look

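Of the 27 groups of 4 values tested for the 9 genes, 1 held a value far from the others. Cyp4a14 in Ad-Ctrl mouse 3 was at 434 TPM, while the next highest control mouse was at 155 TPM, and this gap was 0.897 of the whole range of the group, above Dixon's critical value at the 95% level for 4 samples. Chance alone flags about 1 in 20 groups. The same mouse had the highest control values of Cyp4a10 (597 TPM) and Cyp4a31 (22.9 TPM). Without it the log2 fold change of Cyp4a14 was 2.25 in knockdown minus control and 1.14 in rescue minus control.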

How the results depend on the processing

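The number of the 9 genes past the threshold in knockdown minus control was 4, between 3 and 4 over 10 alternatives, and 4 without any 1 mouse. In rescue minus knockdown it was 2, 0 with array weights, and from 0 to 2 with a mouse left out (0 without Ad-shmGULL mouse 1). In rescue minus control it was 2, 0 with median-of-ratios scaling, 1 with quantile normalization, 1 after rescaling without the 20 highest genes, 1 with array weights, and from 0 to 3 with a mouse left out. With a replicate block the counts were 4, 2 and 2, as without it, and over all genes 1275, 516 and 1239 passed in place of 1253, 492 and 1226. Genes with an adjusted p under 0.05 went from 352 to 71 in rescue minus control under the block, and from 529 to 418 in knockdown minus control, where Cyp4a14 (0.072) and Vnn1 (0.056) then missed an adjusted p of 0.05. In rescue minus control, where 0 of the 9 genes had an adjusted p under 0.05, there were 3 with only the 2 groups in the fit, 2 with array weights, 1 with a mean of at least 5 TPM and up to 2 with a mouse left out. In rescue minus knockdown there were 0 under every alternative run. The share of all genes was not counted for those fits, so whether such counts exceed it is unknown. The mouse numbers share no stated origin, and correlations of same-numbered mice were from -0.24 to 0.15, so they were not taken as pairs.

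Small fold changes that did not pass changed sign. With median-of-ratios scaling this held for Ehhadh (-0.033) and Acaa1a (-0.019) in knockdown minus control, Hsd17b4 in rescue minus knockdown (-0.087) and rescue minus control (-0.032), and Cyp4a31 in rescue minus control (-0.097). With quantile normalization it held for Hsd17b4 in rescue minus knockdown (-0.054) and Cyp4a31 in rescue minus control (-0.077), and after rescaling without the 20 highest genes for Hsd17b4 in rescue minus knockdown (-0.061). With array weights it held for Ehhadh (-0.0065 in knockdown minus control, 0.015 in rescue minus knockdown and 0.0082 in rescue minus control), Cyp4a10 in knockdown minus control (-0.085) and Cyp4a31 in rescue minus control (-0.043).

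With a mouse left out, the ranges of fold changes that crossed 0 in knockdown minus control were -0.042 to 0.17 for Acaa1a, -0.25 to 0.54 for Cyp4a10, -0.0088 to 0.68 for Cyp4a31 and -0.027 to 0.20 for Ehhadh. In rescue minus knockdown they were -0.31 to 0.081 for Cyp4a12a, -0.20 to 0.023 for Ehhadh, -0.027 to 0.077 for Hsd17b4 and -0.16 to 0.036 for Vnn1. In rescue minus control they were -0.44 to 0.35 for Cyp4a10, -0.23 to 0.40 for Cyp4a31 and -0.058 to 0.095 for Ehhadh. The log2 ratio of Cyp4a12a to Cyp4a12b in rescue minus control ranged from -0.097 to 0.20. The cause of these changes was not tested. TPM keep no depth, so the precision of low genes such as Cyp4a31 is unknown.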

Other observations

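Cyp4a12a is a male-biased gene, so lists of liver genes with a sex bias were counted beside it. Of 8 other male-biased genes, 3 were lower in Ad-shmGULL than in Ad-Ctrl, 0 were higher and 5 did not pass, with a list median of -0.53. Among all tested genes 2.3% passed as lower. The 3 were Selenbp2 (679 to 166 TPM in the means, log2 fold change -2.15, adjusted p = 0.0075), Cyp7b1, an oxysterol hydroxylase (582 to 291 TPM, -1.09, adjusted p = 0.031), and the major urinary protein Mup20 (-0.59, adjusted p = 0.089), opposite in sign to Cyp4a12a (0.72). Selenbp2 (1.17) and Cyp7b1 (0.63) passed with higher values in rescue minus knockdown, as did 2.33% of all tested genes. Against Ad-Ctrl, Selenbp2 still passed as lower in the rescue group (-0.98, adjusted p = 0.090) without overlap, where 0.641% of all tested genes did. Cyp7b1 (-0.46) did not pass there. Of 10 female-biased genes 4 were tested, and 2 were higher in Ad-shmGULL, Cyp2b9 (0.802 to 37.1 TPM in the means, 3.72, adjusted p = 0.033) and Cyp2a4 (14.9 to 178 TPM, 3.43, adjusted p = 0.036). Among all tested genes 5.35% passed as higher. The spread was wide, from 3.65 to 92.8 TPM for Cyp2b9 and from 37.1 to 332 TPM for Cyp2a4 after knockdown. Controls of Cyp2b9 lay at 0.272 to 1.80 TPM, near the 1 TPM added before the logarithm, so its fold change depends on that addition. In rescue minus control 3 of the 4 passed as higher, among them Cyp2b9 (3.42) and Cyp2a4 (3.04), where 6.84% of all tested genes did. For Cyp2a4 these groups overlapped, with 29.6 TPM in rescue mouse 3 and 32.3 TPM in control mouse 1.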
